A study of Mus musculus with 3 samples.

Results

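Aire, Fezf2, Cd80, Cd86, Ubd, Srgn and Tnfrsf9, a set of 7 genes linked to the medullary epithelium of the thymus and to the signals it gives T cells, were read in single cells from 2 kinds of cultured mouse thymus. Their counts of unique molecular identifiers (UMIs, tags that mark single captured RNA molecules) were taken per epithelial cell, defined as a cell with at least 1 Epcam UMI. This gave 2592 of the 8392 cells kept. ORFTOC (organoid reaggregate fetal thymic organ culture) held 1446 of them and FTOC (fetal thymic organ culture) held 1146. The thymi came from wild-type, untreated C57BL/6J mice, and cells were taken on culture day 13. ORFTOC was a reaggregate of thymic epithelial cells first grown as organoids from fetal thymi, an EpCAM-depleted fraction of embryonic thymi and mouse embryonic fibroblasts. The paper calls these fibroblasts wild-type and gives no strain. FTOC consisted of intact embryonic thymic lobes kept in the same medium, which contained FGF7. Per the paper, the organoid epithelium came from a later embryonic stage than the lobes. Its time as organoids came before the 13 days. The part of these differences in the results was not tested, and they cannot be told apart from the kind of culture. Each pool combined 2 cultures under a single antibody hashtag (an oligonucleotide barcode), and both pools were run in 1 droplet lane. Each pool is therefore 1 sample without replicates, and no test between the pools was made. Intervals in parentheses are 95% intervals (exact Poisson for levels, Clopper-Pearson for shares, conditional binomial for ratios) and cover counting error only.

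Medullary thymic epithelial cells (mTECs) express genes that are otherwise restricted to other tissues, so that developing T cells meet these products before they leave the thymus. Aire encodes a transcriptional regulator that widens this expression, and its loss causes autoimmunity in humans and mice. Fezf2 encodes a zinc finger transcription factor that acts in mTECs on other tissue-restricted genes. Cd80 and Cd86 encode the ligands of the T cell receptors CD28 and CTLA-4. Ubd encodes FAT10, a ubiquitin-like modifier that targets proteins to the proteasome, Srgn encodes serglycin, the core protein of a granule proteoglycan, and Tnfrsf9 encodes 4-1BB, a costimulatory receptor best known on activated lymphocytes.

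The 250 bases before the transcription start are shown for Aire, Fezf2 and Ubd, because the results turn on these genes being detected in the same cells. They were taken from RefSeq on GRCm38.p6, which had an entry for 6 of the 7 genes and none for Cd86. Aire lies at chr10:78043611-78043860 on the minus strand, Fezf2 at chr14:12345866-12346115 on the minus strand and Ubd at chr17:37193642-37193891 on the plus strand. Capitals mark matches to a TATA box (TATAAA) or to the NF-kappaB consensus, both searched on both strands.
Aire: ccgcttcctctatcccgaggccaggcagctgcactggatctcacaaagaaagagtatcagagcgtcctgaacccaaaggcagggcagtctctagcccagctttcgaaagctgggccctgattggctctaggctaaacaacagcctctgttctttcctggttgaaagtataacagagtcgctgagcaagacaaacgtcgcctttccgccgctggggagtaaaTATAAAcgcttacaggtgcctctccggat
Fezf2: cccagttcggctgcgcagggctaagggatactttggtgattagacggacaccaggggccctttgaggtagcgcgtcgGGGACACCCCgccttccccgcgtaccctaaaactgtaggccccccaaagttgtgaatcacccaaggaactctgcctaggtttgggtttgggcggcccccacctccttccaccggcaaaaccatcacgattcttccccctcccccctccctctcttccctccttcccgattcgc
Ubd: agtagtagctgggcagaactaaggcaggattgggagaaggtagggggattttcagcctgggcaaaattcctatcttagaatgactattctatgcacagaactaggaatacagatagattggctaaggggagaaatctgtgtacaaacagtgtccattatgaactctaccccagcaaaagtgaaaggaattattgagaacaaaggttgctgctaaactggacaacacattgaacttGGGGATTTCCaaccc
The Aire window held a TATA box that began 29 bases before the start. The NF-kappaB consensus began 173 bases before the start in Fezf2 and 15 bases before it in Ubd. Of 32851 windows of this length, 12.4% held a TATA box and 3.90% held the NF-kappaB consensus. The window of Cd80 held neither motif, 1 of 2 windows of Srgn held a TATA box, and 1 of 2 windows of Tnfrsf9 held the NF-kappaB consensus, where the letters matched 3 overlapping times.

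Cells with Epcam had a median of 13066 UMIs in ORFTOC and 11607 in FTOC, with totals of 19858073 and 14096681 UMIs. Of the 2592 cells, 2237 (86.3%) lay in clusters with an epithelial profile, with a median of 13.0 Epcam UMIs. A further 342 (13.2%) lay in immune clusters with a median of 1.00 Epcam UMI, and 74.0% of these carried Ptprc (the leukocyte antigen CD45) and 48.8% an assembled T cell receptor beta (TRB) chain. The pools also differed in sex-linked transcripts, with Eif2s3y at 40.5 UMIs per 1000000 UMIs (CPM) in ORFTOC and 0 in FTOC. The part of this difference in the results was not tested, and it cannot be told apart from the kind of culture.

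Aire and Fezf2 were concentrated in 1 small epithelial class. This class of 119 cells was called mature mTEC-like from Tnfrsf11a, Relb, Nfkb2, Ccl22, Xcl1, Cd40 and Csn2. These markers did not include the 7 genes, which were also left out of the clustering. The only marker among the leading genes of the class was Csn2, a gene known to depend on Aire, so the name is not independent of Aire. Aire reached 411 CPM in this class (385 to 438), with a UMI in 75.6% of cells and 92.2% of all Aire UMIs of the 8392 cells. The next classes, immune cluster 15 at 6.74 CPM and Ccl21a mTEC-like cells at 4.65 CPM, could not be ordered by their intervals. Immune cluster 15 is a cluster of 99 cells that fell among the immune cells but was led by Pth and Chga, genes of endocrine cells, and 61 of its cells had Epcam. Fezf2 reached 335 CPM in mature mTEC-like cells (312 to 360), with 77.6% of its UMIs. It was also present in Ccl21a mTEC-like cells at 12.9 CPM and in cTEC-like cells (cortical thymic epithelium) at 15.0 CPM, levels whose intervals overlapped, and Aire had 1 UMI in the cTEC-like class. Free RNA can give UMIs in cells that do not express a gene. Among double-positive-like thymocytes, 0.0975% of 2051 cells held an Aire UMI and 0.0488% a Fezf2 UMI. These thymocytes had a median of 1594 UMIs against 17999 in mature mTEC-like cells. Thinning to 1000 UMIs kept 1944 of these thymocytes and all 119 mature mTEC-like cells, with shallower cells left out. The shares were then 0.0514% against 27.7% for Aire and 0.0514% against 23.5% for Fezf2.

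The costimulatory ligands had different sources. Cd80 was at 55.2 CPM in mature mTEC-like cells (46.1 to 65.6) and at 34.0 CPM in dendritic-like cells, with overlapping intervals, followed by macrophage-like cells at 12.6 CPM. Cd86 was at 112 CPM in macrophage-like and 97.0 CPM in dendritic-like cells, and mature mTEC-like cells held only 16 of its UMIs, or 6.85 CPM (3.91 to 11.1). Macrophages and dendritic cells are known as the main carriers of both ligands outside the epithelium.

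Ubd and Srgn were found more widely. Ubd was at 1216 CPM in mature mTEC-like cells (1172 to 1262), at 178 CPM in cTEC-like, 78.3 CPM in tuft-like and 52.8 CPM in Ccl21a mTEC-like cells. In the tuft-like class 27 of the Ubd UMIs came from a single FTOC cell. Srgn was at 3562 CPM in mature mTEC-like cells (3486 to 3639), above immune cluster 8 (led by Gzmc, Xcl1 and Klra5) at 992 CPM and innate lymphoid-like cells at 819 CPM, but it was detected in each of the 22 classes. Tnfrsf9 had its highest levels in immune classes, with 243 CPM in immune cluster 8, 182 CPM in innate lymphoid-like and 133 CPM in dendritic-like cells. Mature mTEC-like cells were the only epithelial class above 2 CPM, at 34.7 CPM (27.5 to 43.1).

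**Figure D1:**
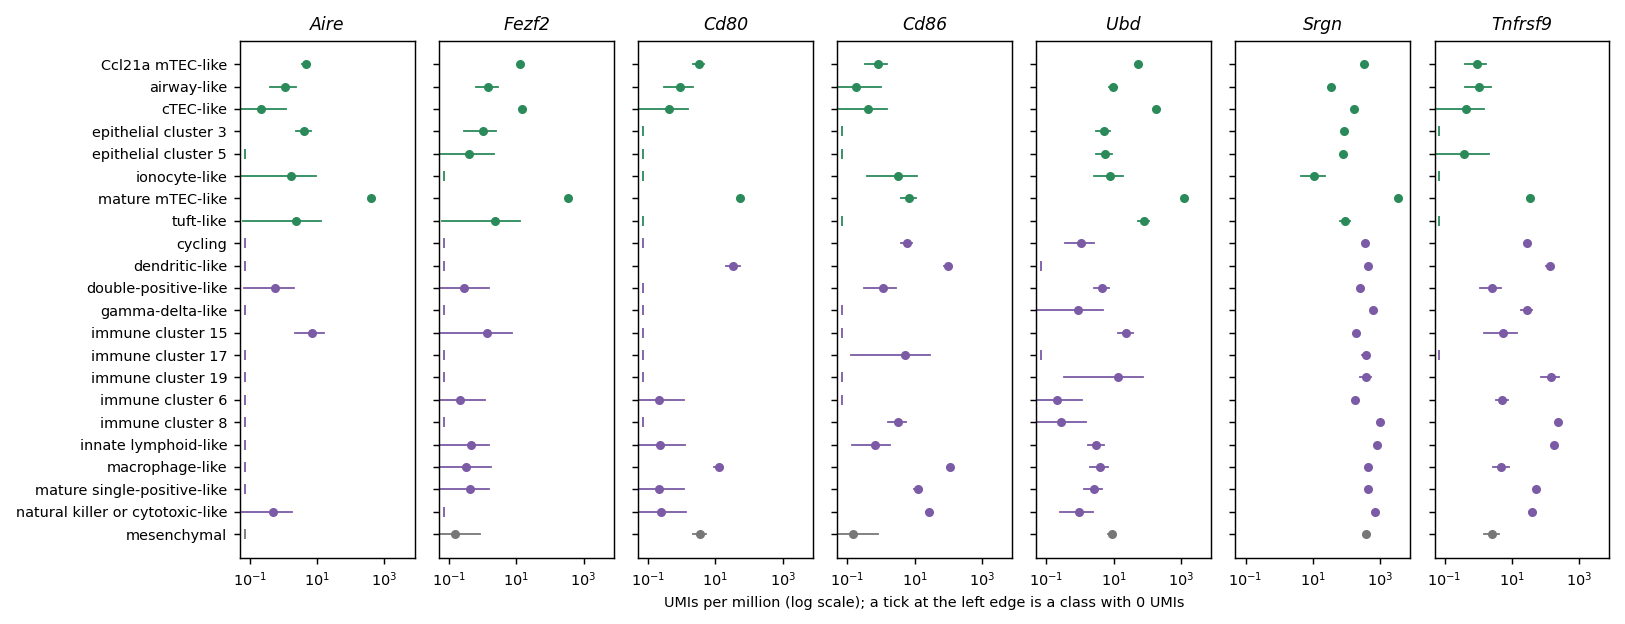
Level of each gene by cell class over both pools, in CPM on a log axis, with points for levels and lines for 95% Poisson intervals (green, epithelial; purple, immune; grey, mesenchymal). Aire and Fezf2 stand at 411 and 335 CPM in mature mTEC-like cells and at 15.0 CPM or less elsewhere, whereas Cd86 and Tnfrsf9 have their highest levels in immune classes.

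Between the pools, Aire had the lowest ratio of ORFTOC to FTOC among the 7 genes. Its 345 UMIs in ORFTOC and 671 in FTOC came to 17.4 CPM (15.6 to 19.3) and 47.6 CPM (44.1 to 51.3), a log2 ratio of -1.45 (-1.65 to -1.26). It was detected in 58 ORFTOC cells (4.01%) and 75 FTOC cells (6.54%). Most of the UMIs lay in few cells, since 17 ORFTOC and 43 FTOC cells with 5 or more Aire UMIs held 79.4% and 91.8% of the Aire UMIs of their pool. Fezf2 was at 28.3 CPM (26.0 to 30.7) in ORFTOC and 30.6 CPM (27.8 to 33.7) in FTOC, and the interval of its log2 ratio, -0.12 (-0.30 to 0.07), included no difference. It was detected in 5.60% and 6.02% of cells.

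Among the costimulatory ligands, Cd80 was at 3.83 CPM (3.02 to 4.79) in ORFTOC and 7.45 CPM (6.09 to 9.02) in FTOC, from 76 and 105 UMIs, a log2 ratio of -0.96 (-1.41 to -0.52). Cd86 ran the other way, with 110 UMIs in 41 ORFTOC cells and 17 UMIs in 10 FTOC cells, a log2 ratio of 2.20 (1.46 to 3.03). Ubd was at 117 CPM in ORFTOC against 134 CPM in FTOC, a log2 ratio of -0.19 (-0.28 to -0.10). Srgn was at 371 and 544 CPM, a log2 ratio of -0.55 (-0.60 to -0.51), although it was detected in a larger share of ORFTOC cells, 55.5% against 49.0%. Tnfrsf9 was at 14.5 and 9.15 CPM, a log2 ratio of 0.66 (0.36 to 0.98). Aire was at least 2-fold lower in ORFTOC, as were 4.23% of the 13673 genes with 50 or more UMIs, and Cd86 was at least 2-fold higher, as were 4.70% of these genes. The median log2 ratio of all these genes was -0.01.

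**Figure D2:**
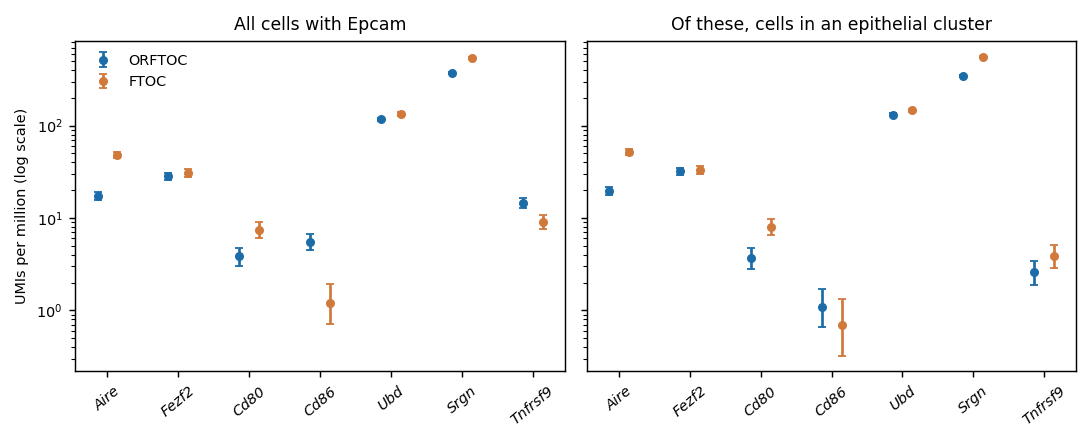
Level of each gene by pool in CPM on a log axis, over all cells with Epcam (left) and over those in an epithelial cluster (right), with points for levels and bars for 95% Poisson intervals. Aire lies at 17.4 CPM in ORFTOC and 47.6 CPM in FTOC on the left, and Tnfrsf9 changes its order between the panels.

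The ratios of Cd86 and Tnfrsf9 differed between all cells with Epcam and those in epithelial clusters. Of the 51 Cd86-detected cells, 72.5% held Ptprc, against 14.6% of the others, and 20 lay in the dendritic-like and 10 in the macrophage-like class. Of the 104 Tnfrsf9-detected cells, 63.5% held Ptprc, against 13.7% of the others. Within epithelial clusters, Cd86 was left with 19 UMIs in ORFTOC against 9 in FTOC, for a log2 ratio of 0.64 (-0.57 to 1.97), and -0.11 when cells with Ptprc or a TRB chain were also left out. Tnfrsf9 was left with 45 and 50 UMIs, a log2 ratio of -0.59 (-1.20 to 0.02), the opposite direction from that in all cells with Epcam. For Aire, Fezf2 and Cd80 the same restriction gave -1.40, -0.06 and -1.12.

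Inside the mature mTEC-like class the pools were closer for Aire and further apart for Fezf2. The class made up 3.04% (2.22 to 4.06) of ORFTOC cells with Epcam and 6.02% (4.71 to 7.56) of FTOC cells with Epcam, and held 46 ORFTOC and 73 FTOC cells in all. Aire was at 362 CPM in its ORFTOC cells and 439 CPM in its FTOC cells, a log2 ratio of -0.28 (-0.48 to -0.08), and was detected in 78.3% and 74.0% of them. Fezf2 was at 451 and 268 CPM, a log2 ratio of 0.75 (0.54 to 0.96), and was detected in 76.1% and 60.3%. Cd80 was detected in 15 of 46 ORFTOC cells (32.6%, 19.5 to 48.0) and in 44 of 73 FTOC cells (60.3%, 48.1 to 71.5). Its level there had a log2 ratio of -0.58 (-1.18 to -0.01), and the FTOC cells were deeper, with a median of 19265 against 16243 UMIs. Ubd had a log2 ratio of 0.30 (0.19 to 0.41) in this class, Srgn of -0.27 (-0.34 to -0.21) and Tnfrsf9 of 0.10 (-0.60 to 0.77), and Cd86 had 8 UMIs in each pool. A single ORFTOC cell of the epithelial clusters held 304 Ubd UMIs, and the Ubd ratios within classes were not recomputed without it. The cells of a class share a pool and are not replicates, and fewer cells of a type and less RNA per cell both lower a level summed over all cells.

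**Figure D3:**
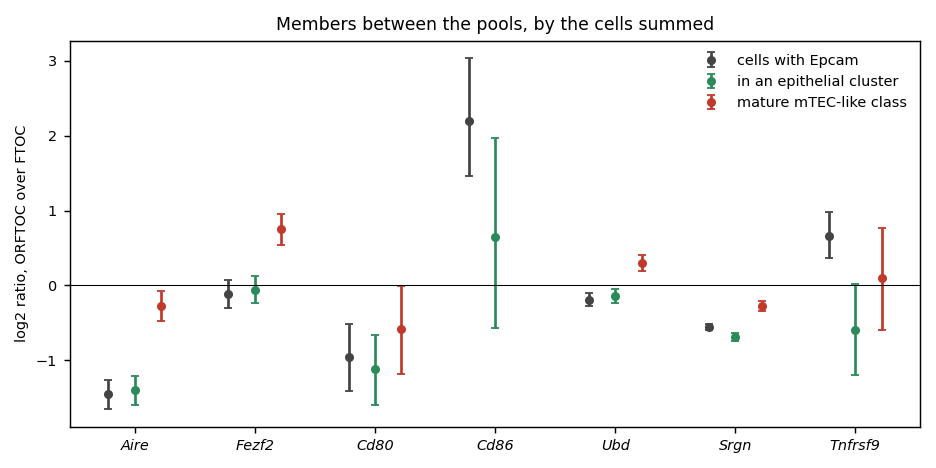
Log2 ratio of ORFTOC over FTOC for each gene, summed over all cells with Epcam (grey), over those in an epithelial cluster (green) and over mature mTEC-like cells (red, 6 genes, Cd86 left out for its few UMIs), with bars for 95% intervals from counting. Aire moves from -1.45 to -0.28 when the sum is restricted to mature mTEC-like cells and Fezf2 from -0.12 to 0.75.

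Fezf2 outside the mature mTEC-like class came mainly from ORFTOC. In Ccl21a mTEC-like cells it had 99 UMIs in ORFTOC against 32 in FTOC, for a log2 ratio of 1.17 (0.58 to 1.80). In the cTEC-like class 12 of 260 ORFTOC cells (4.62%, 2.41 to 7.92) held 72 Fezf2 UMIs, and 0 of 35 FTOC cells held any. At a floor of 3 counts this allows a share of cells with a Fezf2 UMI of up to 8.57%, which is above the share in ORFTOC. The highest of these 12 cells held 19 UMIs and 6 held 3 or more. Of the 12, 11 carried Psmb11 (the thymoproteasome subunit), 11 carried Prss16 (the thymus-specific serine protease) and 11 carried Ccl25 (a chemokine of cortical epithelium). None carried Aire, and 1 carried Ptprc. Their median of 53.0 Krt5 UMIs compared with 13.5 in the other ORFTOC cells of the class, and 11 of 12 carried Ccl21a against 75.4% of the others. Their median depth, 13854 UMIs, was under the 15093 of the others. Ubd was also higher in ORFTOC in this class, at 195 CPM (181 to 208) against 64.9 CPM (46.1 to 88.7), and so was Srgn, at 185 against 86.5 CPM.

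Aire and Fezf2 were detected together in 70 cells with Epcam, where their separate shares over all classes would give 7.70. Of the Aire-detected cells, 87 lay in the mature mTEC-like class, where 66.4% of cells with Epcam held Fezf2. Co-detection was not split by class, so these counts do not separate shared class from a link within a class. Of the 133 Aire-detected cells with Epcam, 52.6% (43.8 to 61.3) also held Fezf2, against 3.25% of cells without Aire. In turn 46.7% of the 150 Fezf2-detected cells held Aire. The share was 55.2% in ORFTOC and 50.7% in FTOC, with intervals that overlapped widely. Cd80 was found in 39.8% of Aire-detected cells and 1.71% of the others, and its share of Aire-detected cells was 25.9% (15.3 to 39.0) in ORFTOC and 50.7% (38.9 to 62.4) in FTOC. Ubd was found in 72.2% and 14.5%, Srgn in 94.0% and 50.4%, Tnfrsf9 in 17.3% and 3.29% and Cd86 in 6.77% and 1.71%. Aire-detected cells were deeper, with a median of 17395 UMIs against 12214. After thinning to 5000 UMIs, 2325 cells remained and 267 shallower cells were left out. At this depth 48.9% of Aire-detected cells held Fezf2 against 2.06% of the others, and 25.0% held Cd80 against 0.805%. By pool the thinned Cd80 share was 22.9% (10.4 to 40.1) in ORFTOC and 26.4% (15.3 to 40.3) in FTOC. The pools were thus closer than at full depth, with intervals that overlapped widely.

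Among all 21 pairs of the 7 genes, Cd86 stood apart in its partners. Its cells held Tnfrsf9 in 39.2% of cases, against 3.31% of cells without Cd86, and held Ubd in 19.6%, against 17.4% of cells without it. Cd86 and Fezf2 shared 5 cells, where their separate shares would give 2.95. Within epithelial clusters, however, 9 of the 14 Cd86-detected cells and 23 of the 37 Tnfrsf9-detected cells also held Aire, and Ubd was found in 10 of these 14 (71.4%, 41.9 to 91.6), against 19.6% of cells without Cd86. Ptprc was present in 21.4% of these 14 cells and 21.6% of these 37, a TRB chain in 0% and 13.5%. All 12 markers of dendritic cells and macrophages were above 0 in the 14 cells with Cd86, with a summed level of 5051 CPM, of which Lyz2 (lysozyme) made up 3554 CPM, against 127 CPM in epithelial-cluster cells without Cd86.

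The shares of cells with Fezf2 and Ubd climbed step by step with the Aire count of the cell in both pools, as counted in epithelial clusters. Within each pool most neighbouring groups had overlapping intervals, such as Fezf2 in FTOC at 1 Aire UMI (3.80 to 43.4) and at 2 to 4 (11.8 to 61.6). The intervals at 0 and at 5 or more Aire UMIs did not overlap in either pool for these 2 genes. The groups were not split by cell class. Over both pools, Fezf2 was found in 3.75% of the 2105 cells with 0 Aire UMIs, 25.6% of the 39 with 1, 51.5% of the 33 with 2 to 4 and 71.7% of the 60 with 5 or more. Ubd was found in 16.7%, 38.5%, 69.7% and 95.0% of the same groups. Cd80 was found in 1.66%, 10.3%, 18.2% and 71.7%, so that its largest step lay between the last 2 groups, whose intervals were 6.98 to 35.5 and 58.6 to 82.5. In FTOC alone the Cd80 share was 17.6% at 1 Aire UMI and 6.67% at 2 to 4. Tnfrsf9 was found in 0.665%, 2.56%, 3.03% and 35.0%, and Cd86 in 0.238%, 0%, 0% and 15.0%, and neither climbed step by step in both pools. Depth differed along this order, with medians of 12558 UMIs in cells with 0 Aire UMIs and 20287 UMIs in cells with 5 or more. In all, 1000 of these cells held none of the 7 genes. Another 25 held 5 of them, 14 held 6 and 4 held all 7, and every cell of these last 3 groups held Aire. The 4 cells with all 7 genes were 3 from ORFTOC and 1 from FTOC.

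**Figure D4:**
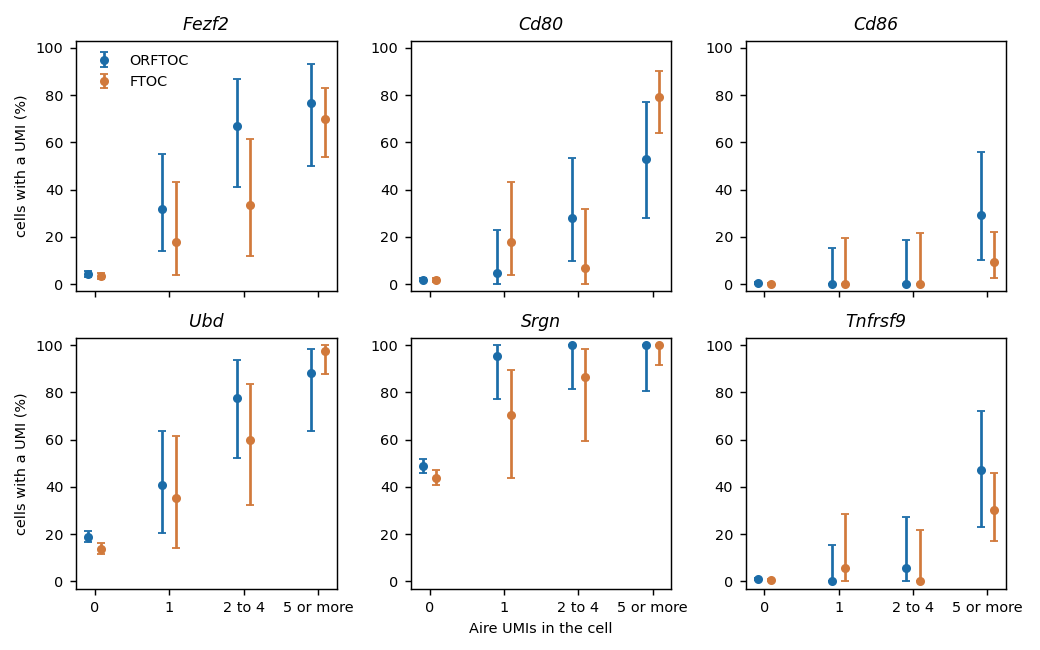
Percent of epithelial-cluster cells with a UMI of each other gene, by the number of Aire UMIs in the cell and by pool, with points for shares and bars for 95% Clopper-Pearson intervals. In both pools the shares of Fezf2, Cd80 and Ubd are highest at 5 or more Aire UMIs, and Cd86 and Tnfrsf9 are at 5.88% or less below that count.

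Immune transcripts were counted beside these shares. Within epithelial clusters, 10.6% of Aire-detected cells held Ptprc and 5.30% a TRB chain, against 6.60% and 2.66% of cells without Aire. All 9 immune markers were above 0 in Aire-detected cells, with a summed level of 798 CPM against 110 CPM, and over all cells with Epcam the highest of them was Cd52 at 336 CPM. Among epithelial-cluster cells with neither a Ptprc UMI nor a TRB chain, a restriction chosen after seeing the data, Fezf2 was found in 53.0% of Aire-detected cells against 3.64% of the others, Cd80 in 39.3% against 1.64% and Ubd in 70.9% against 16.5%.

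The genes most like Aire were ranked by the lower of the 2 pools' log2 ratios between the 132 epithelial-cluster cells with Aire and the 2105 without it, with 10 CPM added to both. The leading 10 were Fabp6, Wfdc21, Csn2, Calcb, Cdx1, Il4i1, Ubd, Insm1, S100a8 and Srgn, with values from 4.82 to 3.70. Csn2 encodes a milk casein, Fabp6 an ileal bile acid-binding protein, Calcb a calcitonin-related peptide and S100a8 a calprotectin subunit of neutrophils, genes known from other organs. Several came from few cells, since the 746 Fabp6 UMIs lay in 17 cells and the 434 S100a8 UMIs in 24. Il4i1, a secreted amino acid oxidase, was in 464 cells, at 1368 CPM with Aire and 70.3 CPM without it in ORFTOC and at 1516 and 65.1 CPM in FTOC. For Fezf2 the leading 5 were Fabp6, Psors1c2, Ptgds, Aire and Vmo1, with values from 4.42 to 3.42. For Cd80 the leading genes were Calcb, Aire and Cdx1, for Ubd they were Wfdc21, Fabp6 and Csn2, and for Srgn they were Il4i1, Rgs5 and Lpo. Cd86 (14 cells) was led by Csn2, Krt20 and Lyz2, and Tnfrsf9 (37 cells) by Fabp6, Ckb and Csn2. In each pool and for 5 of the 5 other genes of the set with 50 or more UMIs, cells with Aire were at least 2-fold above cells without it, as they were for 3.54% of 13206 genes. The same held for 5 of 5 by Fezf2, against 2.78% of genes. The set and the lists below were chosen with earlier results of these data known, so such counts are a description and not a test. Levels were at least 2-fold lower with Aire in both pools for 1.79% of genes and with Fezf2 for 0.825%.

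RANK and CD40 signalling through NF-kB is known to drive the maturation of mTECs. Of 13 genes of the RANK, CD40 and NF-kB pathway, 3 were at least 2-fold higher with Aire in both pools, as were 3.54% of all genes: Tnfrsf11a (the receptor RANK) at 211 CPM with Aire against 42.0 CPM without it in ORFTOC and at 221 against 30.3 CPM in FTOC, Cd40 at 146 against 34.6 CPM and 225 against 19.7 CPM, and Nfkbia at 1453 against 672 CPM and 1582 against 507 CPM. None was 2-fold lower in both pools, against 1.79% of all genes. The list's median log2 ratio was 0.53 in ORFTOC and 1.00 in FTOC, beside -0.09 and -0.11 over all genes. Between the pools none of the 13 differed 2-fold (4.70% of all genes were 2-fold higher in ORFTOC and 4.23% lower). Tnfrsf11a was at 48.3 CPM in ORFTOC and 48.2 CPM in FTOC, and Cd40 at 39.4 and 39.9 CPM. These are RNA levels summed over all cells with Epcam, whose classes differed in share between the pools. For example, cTEC-like cells made up 17.8% of them in ORFTOC and 3.05% in FTOC. A link between these receptors and the Aire level of the pools was not tested.

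Of 8 genes of MHC class II presentation, 3 were at least 2-fold higher with Aire in both pools (Cd74, the invariant chain, H2-Aa, a class II alpha chain, and Ctss, a cathepsin that cleaves the invariant chain), against 3.54% of all genes, and none lower, against 1.79%. Between the pools, in cells with Epcam, 1 of the 8 differed 2-fold (4.70% of all genes were 2-fold higher in ORFTOC and 4.23% lower). This was Ctss, with a log2 ratio of 1.28, but only 802 of its 1906 UMIs lay in epithelial clusters, where the ratio was -0.27 (-0.47 to -0.07), the opposite direction. Of the 7 other costimulatory and coinhibitory ligands with 50 or more UMIs, Icosl (the ligand of ICOS) and Cd70 (the ligand of CD27) were at least 2-fold higher with Aire in both pools, against 3.54% of all genes. Icosl was at 100 CPM with Aire and 5.11 CPM without it in ORFTOC, and at 120 and 4.64 CPM in FTOC. Cd274, which encodes PD-L1, was at 28.6 against 105 CPM in ORFTOC and 32.2 against 47.9 CPM in FTOC. Between the pools Pdcd1lg2 (PD-L2) and Cd274 were at least 2-fold higher in ORFTOC, with log2 ratios of 1.98 and 1.09 (4.70% of all genes), and Tnfsf9 (the ligand of 4-1BB) and Cd70 at least 2-fold lower, with -1.60 and -1.28 (4.23% of all genes). In epithelial clusters alone the ratios were 1.12 for Cd274, -1.74 for Tnfsf9 and -1.26 for Cd70, and the interval for Pdcd1lg2 was 1.67 to 2.35.

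Among 7 proteins known to act with Aire or Fezf2, Sirt1, a deacetylase, and Top2a, a topoisomerase of dividing cells, were at least 2-fold higher with Aire in both pools, 2 of 7 against 3.54% of all genes. Sirt1 was at 77.3 against 15.8 CPM in ORFTOC and 81.1 against 15.7 CPM in FTOC, while Top1, Crebbp and Chd4 had log2 ratios between -0.47 and -0.10. None of the 7 differed 2-fold between the pools (4.70% of all genes were 2-fold higher in ORFTOC and 4.23% lower).

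Tissue genes known to depend on Aire were sparse, and 3 of the 6 listed had 50 or more UMIs in epithelial clusters. Csn2 and S100a8 were at least 2-fold higher with Aire in both pools (3.54% of all genes), whereas Tff3, a trefoil peptide, was not, and Ins2 had 1 UMI. Between the pools Csn2 and S100a8 had log2 ratios of -1.30 and -1.37, and Tff3 had 1.70. Mup4, a urinary protein, had 20 UMIs in FTOC and 0 in ORFTOC. Of the genes known to depend on Fezf2, 4 of 6 had 50 or more UMIs in epithelial clusters. Resp18, an endocrine secretory protein, was at least 2-fold higher in both pools in cells with Fezf2, as it was in cells with Aire, against 2.78% and 3.54% of all genes. Calb1, a calcium-binding protein, had 2 UMIs in ORFTOC and 56 in FTOC.

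Of the medullary chemokines, Cxcl9 was at least 2-fold higher with Aire in both pools (3.54% of all genes), at 83.1 against 31.4 CPM in ORFTOC and 432 against 50.9 CPM in FTOC. Ccl21a, which draws T cells to the medulla, was at 609 against 1041 CPM in ORFTOC and 117 against 787 CPM in FTOC. Between the pools 4 of the 7 chemokines were at least 2-fold higher in ORFTOC cells with Epcam (Ccl19, Ccl22, Ccl17 and Xcl1), against 4.70% of all genes, and Cxcl9 was lower with a log2 ratio of -1.34, against 4.23%. Most Ccl19 UMIs lay in epithelial clusters, where its log2 ratio was 1.44 (1.39 to 1.48) and that of Cxcl9 was -1.46 (-1.60 to -1.32). The others lay mostly outside them, with 38 of 196 Ccl22 UMIs, 33 of 499 Ccl17 UMIs and 76 of 2555 Xcl1 UMIs inside. Within epithelial clusters Ccl22 was at 1.09 CPM in ORFTOC and 1.47 CPM in FTOC, a log2 ratio of -0.44 (-1.43 to 0.56), whereas Ccl17 had 1.73 (0.43 to 3.30) and Xcl1 had 2.86 (1.75 to 4.23).

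Transcripts of 8 listed receptors and ligands of lymphocytes were present in the same cultures, among them partners of Cd80, Cd86 and Tnfrsf9. Of the 8 listed, 3 had 50 or more UMIs in epithelial clusters. Of these 3, Ltb (lymphotoxin beta) was at least 2-fold higher with Aire in both pools (3.54% of all genes). It was at 119 against 36.7 CPM in ORFTOC and 73.8 against 11.2 CPM in FTOC. Ltb was at 1489 CPM in innate lymphoid-like and 93.7 CPM in mature mTEC-like cells. Its contrast by Aire was not recomputed without cells with Ptprc or a TRB chain. Cd28 was at least 2-fold lower (1.79%), at 1.91 against 34.8 CPM and 3.35 against 42.5 CPM. Cd28, the receptor of both B7 ligands, was highest in double-positive-like thymocytes at 309 CPM. It was also found in epithelium, at 108 CPM in epithelial cluster 5 (led by Lypd1 and Prss23), 62.2 CPM in cTEC-like and 27.6 CPM in Ccl21a mTEC-like cells. In mature mTEC-like cells Cd28 was at 1.71 CPM, and its contrast by Aire was not split by class. Ctla4 was highest in gamma-delta-like cells at 89.7 CPM. Tnfsf11, which encodes RANKL, was at 508 CPM in immune cluster 19 (32 cells, led by Il1r1 and Il23r) and at 138 CPM in innate lymphoid-like cells, and Lta was at 586 and 552 CPM in the same 2 classes.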

How the data were processed

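Gene expression, T cell receptor and hashtag libraries of 1 droplet lane (5' chemistry) were analysed. Per the labels and the study's methods, the authors aligned reads to mm10 with Cell Ranger 6.1.2 and used Seurat 4.2.0. The matrix header names another Cell Ranger version, and its part in the counts was not tested. The deposited matrix held raw UMI counts, not normalised, for 32285 genes in 705161 barcodes, and the deposited filtered contig list held UMI counts of assembled chains, used here only to mark cells with a TRB chain.

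Cells with at least 600 genes and 0.4 to 10% mitochondrial UMIs were kept. HTODemux (Seurat 5.3.0, quantile 0.99) assigned 8983 cells to 1 hashtag, and set aside 590 doublets between pools and 672 cells without a hashtag. A neighbour rule (50 neighbours, 50 principal components) removed 591 doublets within pools, leaving 4330 ORFTOC and 4062 FTOC cells. Clustering used sctransform 0.4.2 and 18 principal components, at resolution 0.4 (1 for immune cells). The 7 genes and all genes of the 8 lists of related genes were left out of it. Clusters were named from marker lists, with the suffix -like. Levels are UMIs summed over cells per 1000000 UMIs (CPM). With 1 sample per pool no p-value was computed. Genes needed 50 UMIs to be counted in gene-wide shares. The named genes were the 7 genes, the 10 most like Aire, the 5 most like Fezf2, the 3 most like each other gene, and 8 lists of related genes. The 7 genes and the lists were chosen with earlier results of these data known. The ranking script was checked on simulated data. Alternatives changed the hashtag rule, doublet removal, cell and Epcam minimums, cell class, depth, cell weighting, ambient RNA, resolution, pseudocount and gene minimum. Scripts ran in Python 3.11.15 (pandas 2.3.3, scipy 1.17.1, numpy 2.4.6) and R 4.3.3. RefSeq promoter windows are on GRCm38.p6.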

Additional observations from a re-analysis of the deposited data

How the results depend on the processing

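Of 168 recomputed values, 131 stayed within the counting interval of the reported value (or, for a count of genes, within 1.5 times of it) and 32 moved outside it. The other 5 took the opposite sign of a reported value whose interval held a single sign. Sign changes of the Fezf2 ratio, whose interval held both signs, are not among these 5. The cause of these changes was not tested except where the cells left out are named.

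For Aire, the log2 ratio of ORFTOC over FTOC was -1.09 with within-pool doublets kept, -1.18 without cells with Ptprc and -1.02 with each cell weighted equally, and it was below 0 under each alternative. For Fezf2 it was -0.62 with hashtags assigned by ratio and 0.17 with each cell weighted equally. It was also above 0 without cells with Ptprc (0.06), with cells thinned to 5000 UMIs (0.02) and in epithelial clusters without Ptprc or a TRB chain (0.04). For Cd80 it was below 0 under each alternative. With cells thinned to 5000 UMIs the Cd80 ratio was -0.64 (-1.53 to 0.24), an interval that included no difference. For Cd86 the ratio was 1.19 with hashtags assigned by ratio and 1.38 with cells thinned to 5000 UMIs. It was 0.30 without cells with Ptprc and 0.64 in epithelial clusters. For Ubd it was -0.52 with hashtags assigned by ratio, -0.06 with equal weights and 0.01 without cells with Ptprc. For Srgn it was -0.78 with hashtags assigned by ratio, -0.37 with doublets kept, -0.62 with at least 3 Epcam UMIs, -0.69 in epithelial clusters, -0.20 thinned, -0.49 without the cell richest in Srgn in each pool and -0.22 with equal weights. For Tnfrsf9 it was 0.23 with hashtags assigned by ratio and 1.33 thinned, and it turned to -0.21 without cells with Ptprc and -0.59 in epithelial clusters. In epithelial clusters without Ptprc or a TRB chain, an alternative chosen after seeing the data, the values were -1.19 for Aire, -0.11 for Cd86, -0.01 for Ubd and -0.82 for Tnfrsf9.

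Cd80 was found in 25.0% of Aire-detected cells after thinning, and at full depth in 25.9% in ORFTOC alone and 50.7% in FTOC alone. After thinning, the shares by pool were 22.9% in ORFTOC and 26.4% in FTOC. Srgn was found in 98.3% of Aire-detected cells in ORFTOC alone, and Tnfrsf9 in 27.1% with hashtags assigned by ratio. At clustering resolution 0.8 the mature mTEC-like class held 142 cells, at 351 CPM of Aire, 287 of Fezf2, 1062 of Ubd and 3120 of Srgn. At resolution 0.2 it was not separate from tuft-like cells, so no value was taken. With a pseudocount of 1 CPM, 7 of the 10 genes most like Aire were kept and 2 of the 5 most like Fezf2. Depth limits Cd86 most, since its 28 UMIs in epithelial clusters leave an interval of -0.57 to 1.97 for its log2 ratio. The ratios of the related genes in epithelial clusters were also added after seeing the data, and those of Ctss and Ccl22 turned below 0, to -0.27 and -0.44. No paired analysis was possible because each pool is 1 sample and no result comes from a test.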
